A study of Mus musculus with 9 samples.

Results

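The Runx genes of the mouse are Runx1, Runx2 and Runx3, which are 3 of the 21887 protein-coding genes of the RefSeq annotation used here. They were chosen as a family by name, and the Sox2 binding summits inside each gene span, within 50 kb of it, or nearest to it at up to 500 kb were collected from 3 peak lists. The summits were selected on their listed positions, and the family was proposed with these lists known, so the number of summits per gene is a description and carries no test. Across the lists it found 8 summits of 2589 in lung epithelial cells that carried ectopic Sox2 and lacked Nkx2-1, 2 of 229 in cells with ectopic Sox2, and 3 of 552 in wildtype cells. All were near Runx1 or Runx2. Runx3 had no summit within 50 kb and no nearest-gene summit in any of the lists.

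Binding of Sox2 was profiled by ChIP-seq, the sequencing of DNA that is immunoprecipitated with a protein, in C57BL/6 lung epithelial cells labelled as 8 weeks of age, with a goat antibody against Sox2. The groups were cells with ectopic Sox2 expression and deletion of Nkx2-1, cells with ectopic Sox2 expression, and wildtype cells, with 1 Sox2 ChIP library each. The labels do not say how Sox2 was expressed or how Nkx2-1 was deleted, and a peak list holds no RNA level that could check either. Because every condition rests on 1 library, conditions are set side by side without p-values. Intervals are 95% intervals that cover counting error only.

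Runx proteins are transcription factors that bind DNA through the conserved Runt domain, together with the partner subunit Cbfb. Runx1 is required for definitive blood formation and also acts in epithelial stem cells of the hair follicle, Runx2 is the master regulator of bone-forming cells, and Runx3 acts in T cells, sensory neurons and epithelium. Each of the genes can be transcribed from a distal and a proximal promoter. Sox2 is itself a factor of the conducting airway and oesophagus, while Nkx2-1 specifies lung.

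The distal starts, from which distances are given here, share a stretch of sequence that holds a pair of Runx motifs, and it is shown here because the 3 genes have it in common. The stretches below are read in the direction of transcription from RefSeq (GRCm38.p6, the same assembly as mm10), with capitals on ACCACA, the reverse complement of the Runx motif TGTGGT. Each holds ACCACA 2 times.

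Runx1 (chr16:92826025-92826054, minus strand): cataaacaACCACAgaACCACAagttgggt

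Runx2 (chr17:44814583-44814612, minus strand): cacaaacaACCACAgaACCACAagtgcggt

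Runx3 (chr4:135120503-135120532, plus strand): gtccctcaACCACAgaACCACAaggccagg

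The longest run common to the 3 distal windows is 18 bases long, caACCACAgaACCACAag, and it starts 26 bases after the annotated start in Runx1, 21 bases after it in Runx2, and 136 bases before it in Runx3. Of 32851 RefSeq promoter windows, each from 250 bases before to 50 bases after a start, 4 hold this run on either strand. These are the 3 Runx windows and that of Gm16225, a long non-coding RNA on the opposite strand whose window overlaps the one of Runx3. The run was picked after the windows were read. TGTGGT on either strand lies in 16.8% of all windows, with 2 matches in the distal window of Runx1, 3 in that of Runx2 and 2 in that of Runx3. The proximal windows of Runx1 and Runx3 hold 0 matches to it, and the table used here has 1 window for Runx2. TGCGGT, the other Runx motif searched, lies in 6.45% of all windows and has 1 match, in Runx2. Of the Sox motifs, ACAAT is in 31.0% of all windows and has 1 match in Runx2 and 0 in the others, and ACAAAG is in 18.7% and has 0 matches in the 5 Runx windows. All 4 motifs were searched on both strands, and none contains another. A match is a description of letters, and the genome sequence under the summits themselves was not used here.

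No summit of any list lay at one of the 5 annotated Runx starts. The closest to a start of Runx1 was 43.3 kb away with Nkx2-1 deletion, 172.8 kb away under ectopic Sox2 alone and 44.7 kb away in wildtype. For Runx2 the distances were 250.9 kb, 266.4 kb and 266.4 kb. For Runx3 they were 145 kb, 724 kb and 3270 kb. Sox2 summits of the Runx genes were thus all distal to the annotated starts.

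**Figure D1:**
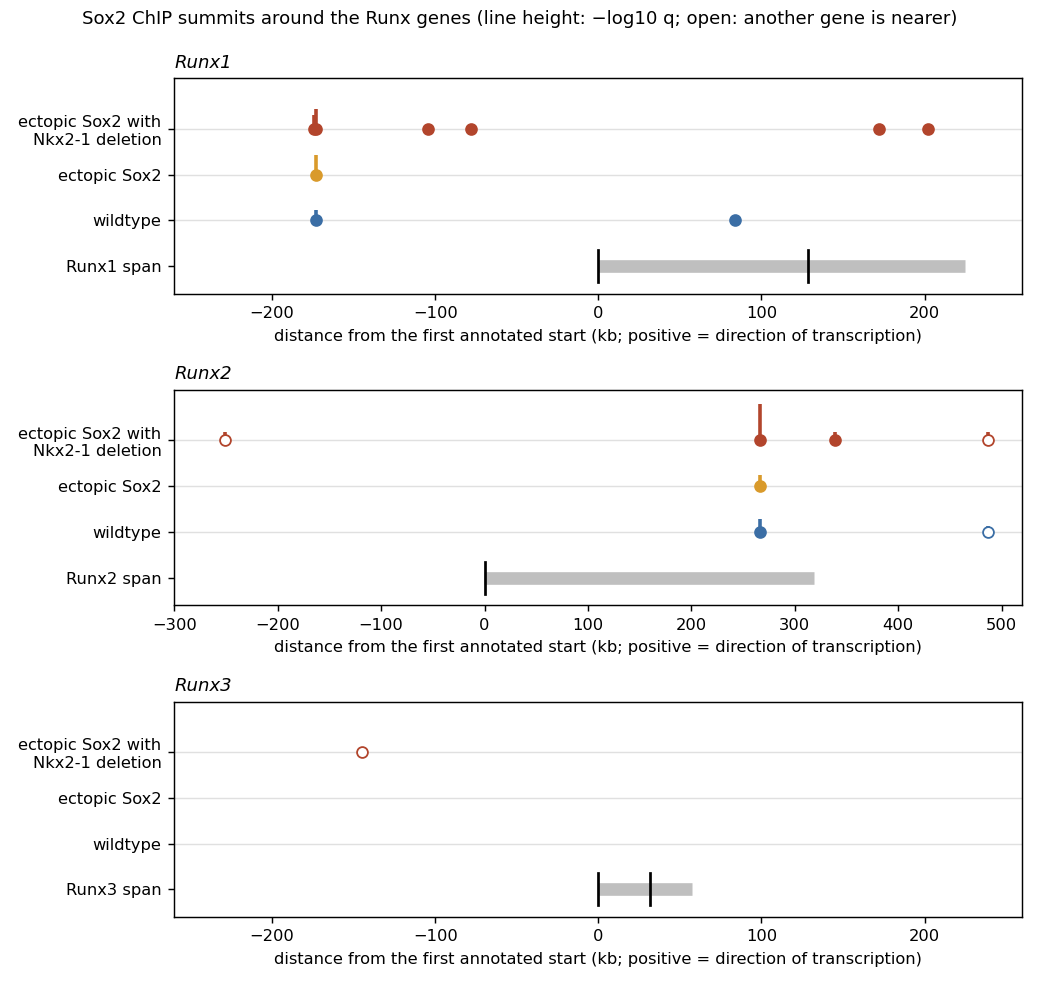
Summits of each list by distance in kb from the first annotated start of Runx1, Runx2 and Runx3, with positive distances in the direction of transcription. Points are summits (open where another gene is nearer), lines above them scale with −log10 q, grey bars are gene spans and black ticks annotated starts. Runx1 has a region at 173 kb upstream and Runx2 a region at 266 kb inside the gene in all 3 lists, and Runx3 has none that is nearest to it.

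The depth of a library, here the mean ChIP coverage implied by the listed values, was 1.45 fragments per position with Nkx2-1 deletion, 0.764 under ectopic Sox2 alone and 0.963 in wildtype. The Nkx2-1 deleted library therefore had 1.90 times the depth of the ectopic Sox2 library and 1.51 times that of wildtype. A listed summit rested on a median of 38, 23 and 24 ChIP fragments in that order. ChIP fragments at a summit were recovered from the fold enrichment and −log10 p that the authors' peak caller wrote, both of which are the authors' values and rank summits within 1 list. Control background is given as a multiple of the genome-wide value of the same library, and over all listed summits its median was 3.25 with Nkx2-1 deletion, 2.46 under ectopic Sox2 alone and 2.80 in wildtype. The multiples rest on low control coverage, from 1 to 8 at the Runx summits. The genome-wide values were 0.615, 0.487 and 0.714 in the same order. The multiples carry no interval.

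Runx2, which drives osteoblast differentiation, held the most heavily covered Sox2 summit of the Nkx2-1 deleted list. Runx2 spans 318.8 kb on chromosome 17 (44495987 to 44814797, mm10, minus strand), and the region lay within the gene, 266 kb downstream of the start. With Nkx2-1 deletion it covered chr17:44548010-44548372 with 146 ChIP fragments (interval 123 to 172). With ectopic Sox2 it covered chr17:44548035-44548326 with 53 fragments (39.7 to 69.3). In wildtype it covered chr17:44548044-44548309 with 58 fragments (44.0 to 74.98). The summits of the 3 lists fell within 9 bp of each other, and the regions overlapped in every pair of lists. Regions found in all 3 lists held 2.39% of the summits of the Nkx2-1 deleted list. This share was 11.4% for the wildtype list and 27.5% for the ectopic Sox2 list, so such sharing was least unusual in the last.

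Within its own list this Runx2 summit ranked 1 by fragments, among 2588 summits with recovered fragments, and 3 of 2589 by q with Nkx2-1 deletion. It ranked 7 of 229 by fragments and 32 by q with ectopic Sox2, and 8 of 552 by fragments and 31 by q in wildtype. Its −log10 q was 36.97, 11.0 and 13.5 in these lists, and the authors' fold was 10.5, 5.80 and 5.50. By fold it stood lower, at rank 107 with Nkx2-1 deletion, 160 under ectopic Sox2 alone and 326 in wildtype. The control background at this position was high in every library, at 8.13 times the genome-wide value with Nkx2-1 deletion, 10.3 times under ectopic Sox2 alone and 9.81 times in wildtype. Its part in the summit was not tested.

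Scaled by depth, the Runx2 region had 1.45 times as many fragments with Nkx2-1 deletion as with ectopic Sox2 (exact conditional binomial interval 1.05 to 2.02), and 1.67 times as many as in wildtype (1.22 to 2.30). Ectopic Sox2 over wildtype gave 1.15 (0.779 to 1.70), an interval that includes 1. These intervals compare libraries and not conditions. The 63 regions found in all 3 lists had median ratios of 1.32, 1.25 and 0.946 for the same pairs, with quartiles of 1.02 to 1.60, 0.916 to 1.55 and 0.785 to 1.12. The Runx2 ratio ranked 24 of 63 for Nkx2-1 deletion over ectopic Sox2 and 14 of 63 for both other pairs, so it lay inside the quartiles in the first pair and above the upper quartile in the others. Scaled by these shared regions in place of depth, the Runx2 ratios were 1.10, 1.34 and 1.22.

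The Nkx2-1 deleted list had another Runx2 summit, 19.9 kb beyond the end of the gene and 72.1 kb from the shared one. It covered chr17:44475965-44476204 with 34 fragments (23.5 to 47.5), a fold of 7.70 and a −log10 q of 8.10, over a control background of 1.63 times the genome-wide value. No region of the other lists overlapped it, which held for 87.3% of all summits of the Nkx2-1 deleted list. At the depth of the ectopic Sox2 library 34 fragments correspond to 17.9, and at that of wildtype to 22.6. Summits with as high a control background were listed there with as few as 14 and 11 fragments, which is below the scaled count in both cases. The median of such summits was 27 fragments in both lists, which is above it.

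Runx1, the blood and epithelial stem cell factor, had the most nearest-gene summits of the family with Nkx2-1 deletion and in wildtype. It spans 224.6 kb on chromosome 16 (92601466 to 92826074, minus strand), with Clic6 60.2 kb beyond its end and 757 kb without another protein-coding gene upstream, up to Setd4. With Nkx2-1 deletion 6 summits had Runx1 as their nearest gene, over a stretch of 376 kb. Of these, 2 lay inside the gene and 4 upstream of it. With ectopic Sox2 there was 1, upstream, and in wildtype there were 2, of which 1 lay inside and 1 upstream.

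The strongest Runx1 region lay 173 kb upstream of the distal start and, like the one inside Runx2, was found in all 3 lists. With Nkx2-1 deletion it covered chr16:92998707-92999035 with 126 fragments (105 to 150.0). With ectopic Sox2 it covered chr16:92998761-92999009 with 57 fragments (43.2 to 73.9). In wildtype it covered chr16:92998776-92999015 with 50 fragments (37.1 to 65.9). The summit fell on the same base with ectopic Sox2 and in wildtype, and 9 bp away with Nkx2-1 deletion. Its −log10 q was 20.2 (rank 38), 20.01 (rank 6) and 10.1 (rank 77) in this order of libraries, and by fragments it ranked 4, 6 and 21. In the ectopic Sox2 list it therefore stood above the Runx2 region, whereas in the Nkx2-1 deleted and wildtype lists it stood below.

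At this upstream Runx1 region the depth-scaled ratio was 1.16 for Nkx2-1 deletion over ectopic Sox2 (0.844 to 1.62), which includes 1, and 1.67 for Nkx2-1 deletion over wildtype (1.20 to 2.37). For ectopic Sox2 over wildtype it was 1.44 (0.966 to 2.15), an interval that includes 1. Among the 63 regions found in all 3 lists these ratios ranked 41, 13 and 2. Scaled by those regions in place of depth, the 3 ratios were 0.879, 1.34 and 1.52, so the direction of the first turned. The control background was 13.0 times the genome-wide value with Nkx2-1 deletion, 6.15 times under ectopic Sox2 alone and 9.81 times in wildtype. A high control background was usual for regions found in all 3 lists, with medians of 8.13, 4.10 and 6.17, against 3.25, 2.05 and 2.52 at summits found in no other list. Its part in the sharing was not tested.

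A second summit lay 1.72 kb farther upstream and only in the Nkx2-1 deleted list, at chr16:93000451-93000740. It had 49 fragments (36.3 to 64.8), a −log10 q of 13.5 (rank 195) and the highest fold of the Runx1 summits of that list, 9.88 (rank 142), over a control background of 1.95 times the genome-wide value. The 49 fragments correspond to 25.8 at the depth of ectopic Sox2 and 32.5 at that of wildtype. Summits with as high a control background were listed with as few as 14 fragments among 170 with ectopic Sox2, and with as few as 13 among 374 in wildtype. Both scaled counts were above these minima. The medians of the same summits were 27 and 28 fragments, above the scaled count for ectopic Sox2 and below that for wildtype. The fragments that those libraries hold at the position are not known from a peak list.

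The other 4 Runx1 summits of the Nkx2-1 deleted list were weaker by fold and −log10 q, although their fragments were above the list's median of 38. They lay inside the gene, 202 kb (chr16:92624098-92624324) and 172 kb (chr16:92653903-92654150) downstream of the distal start, and outside it, 78.0 kb (chr16:92903973-92904256) and 104 kb (chr16:92930212-92930430) upstream. They had 56, 52, 54 and 49 fragments, with folds from 3.62 to 4.12 and −log10 q from 3.36 to 5.07. All had the same control coverage of 5, or 8.13 times the genome-wide value. At or above it lay 13.3% of the summits of the list and 11.8% of those on chromosome 16. None overlapped a region of another list, and over the whole Nkx2-1 deleted list the share without such an overlap was 87.3%. At the depth of ectopic Sox2 they correspond to 25.8 to 29.5 fragments, where the fewest listed over as high a control background was 27, and at the depth of wildtype to 32.5 to 37.2, where the fewest was 28. The scaled counts thus straddle the fewest that the ectopic Sox2 list holds and exceed the fewest of the wildtype list. They lie below the medians of the same summits, 42 and 41 fragments.

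The wildtype list had a summit of its own inside Runx1, at chr16:92741958-92742207. It lay between the starts, 84.0 kb downstream of the distal and 44.7 kb upstream of the proximal one. It rested on 11 fragments (5.49 to 19.7), with a fold of 4.57 and a −log10 q of 1.92, rank 527 of 552. The same density gives 16.6 fragments at the depth of the Nkx2-1 deleted library, where the fewest listed over as high a control background was 17, and 8.72 at the depth of ectopic Sox2, where the fewest was 14. No list but wildtype held it, and 43.7% of all wildtype summits were likewise in no other list.

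**Figure D2:**
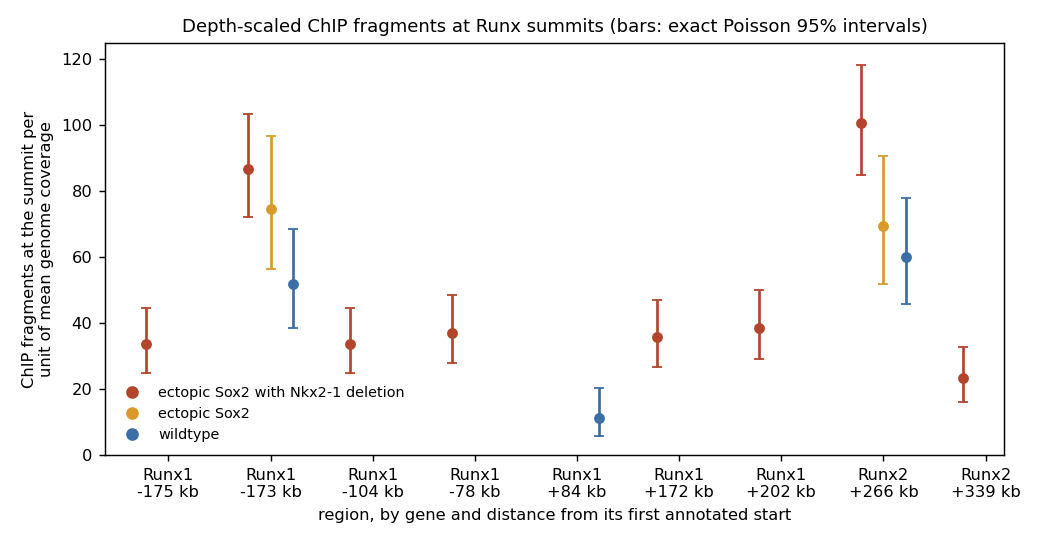
ChIP fragments at each Runx summit divided by the library's mean coverage, by region, with exact Poisson 95% intervals; a missing point means that the region is not listed in that library. The regions at 173 kb upstream of Runx1 and 266 kb inside Runx2 have points in all 3 libraries, from 51.9 to 100.5, and the summits found in 1 list lie between 11.4 and 38.6.

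The Runx1 and Runx2 regions found in all 3 lists ranked high by q. They stood among the first 38 of 2589 summits with Nkx2-1 deletion, the first 32 of 229 with ectopic Sox2, and the first 77 of 552 in wildtype. The 4 weaker Runx1 summits with Nkx2-1 deletion ranked between 1498 and 2121, with −log10 q below the list's median of 5.97. The summits just inside and just outside the window of 50 kb were the one 19.9 kb beyond Runx2 and the one 78.0 kb upstream of Runx1.

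**Figure D3:**
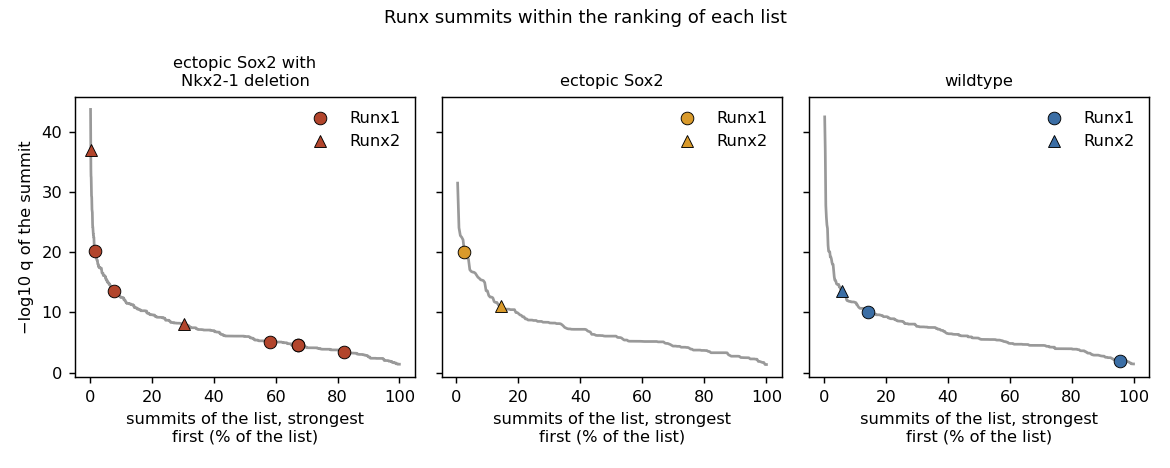
−log10 q of every summit of a list against its rank, as a percent of the list with the strongest first, in 1 panel per library. Circles mark summits nearest to Runx1 and triangles those nearest to Runx2. The leading Runx2 summit with Nkx2-1 deletion has a −log10 q of 36.97, and the wildtype summit inside Runx1 sits near the end of its list at 1.92.

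Runx3, which acts in T cells and epithelium, is the shortest of the family at 57.3 kb (chromosome 4, 135120645 to 135177990, plus strand). The nearest summit with Nkx2-1 deletion lay 145 kb upstream at chr4:134975455-134975678, with 21 fragments (13.0 to 32.1), a fold of 4.95 and a −log10 q of 2.37. It was nearer to Syf2, a splicing factor gene, at 38.0 kb. With ectopic Sox2 the nearest summit was 698 kb away and in wildtype 3270 kb. Having no summit within 50 kb in any list is the usual case, shared by 85.3% of all protein-coding genes.

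Set beside all protein-coding genes, a summit was found inside or within 50 kb of 2 of the 3 Runx genes with Nkx2-1 deletion, where the background was 13.1%. With ectopic Sox2 it was 1 of 3 (Runx2), against 1.53%, and in wildtype 2 of 3, against 2.85%. Long genes more often have a summit: among the 990 genes with a span of at least 200 kb, as Runx1 and Runx2 have, the shares were 34.2% with Nkx2-1 deletion, 3.54% under ectopic Sox2 alone and 10.6% in wildtype. Of all genes, 0.484% had a summit within 50 kb in all 3 lists, as Runx2 did. A further 1.27% had 1 with Nkx2-1 deletion and in wildtype and none with ectopic Sox2, which was the pattern of Runx1.

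By nearest gene up to 500 kb, both Runx1 and Runx2 had a summit in all 3 lists, as did 0.407% of genes. In single lists the share was 8.34% with Nkx2-1 deletion, 0.978% under ectopic Sox2 alone and 2.11% in wildtype. A region found in all 3 lists had 0.270% of genes as its nearest gene at up to 500 kb. Having at least 6 nearest-gene summits with Nkx2-1 deletion, as Runx1 had, was found for 0.0548% of genes, or 12 genes. The others were Zfp608, Sox6, Ctnna2, Mctp2, Nrip1, Ppp3ca, Abcc4, Gnaq, Klf6, Sugct and Trp63, named after their values were seen. Sox6 is a SoxD factor and Trp63 the master regulator of basal epithelium. Among the 676 genes with as much surrounding space as Runx1, 1.18% had at least 6 such summits and 36.1% had at least 1. On chromosome 16, 15.9% of genes lay within 50 kb of a summit in the Nkx2-1 deleted list, against 8.69% on chromosome 17 and 8.81% on chromosome 4, where Runx2 and Runx3 lie.

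**Figure D4:**
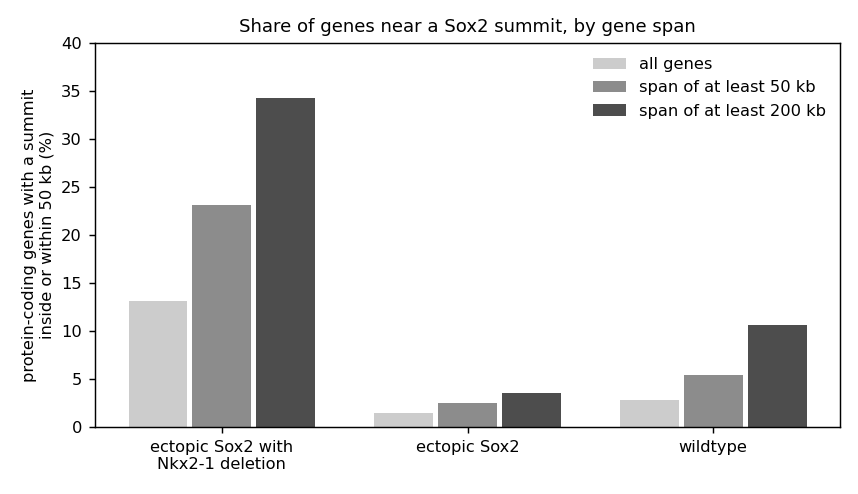
Percent of protein-coding genes with a Sox2 summit inside the span or within 50 kb, for each library, over all genes, genes with a span of at least 50 kb and genes with a span of at least 200 kb. The share grows with span in each library, from 13.1% over all genes to 34.2% over the longest with Nkx2-1 deletion.

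The Runx genes lie in a conserved neighbourhood with chloride intracellular channel (Clic) and calcineurin regulator (Rcan) genes, in which each Runx gene has a Clic and an Rcan gene beside it. Of these 6 neighbours, only Clic5 lay within 50 kb of a summit, in the Nkx2-1 deleted list (16.7% of the neighbours, against 13.1% of all genes) and in wildtype (16.7% against 2.85%) but not in the ectopic Sox2 list. The region lay 47.4 kb from Clic5 and 168 kb beyond the end of Runx2. With Nkx2-1 deletion it covered chr17:44327355-44327815 with 52 fragments (38.8 to 68.2) and a −log10 q of 8.22, and in wildtype chr17:44327451-44327670 with 18 fragments (10.7 to 28.4) and a −log10 q of 6.43. On the other side of Runx2, the Nkx2-1 deleted list had a summit at chr17:45065401-45065694 within Supt3, a gene for a transcription coactivator subunit that overlaps the start of Runx2. It had 48 fragments (35.4 to 63.6) and lay 251 kb upstream of the Runx2 start.

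Among 24 genes for Runx partners and regulators, 8 lay within 50 kb of a summit with Nkx2-1 deletion, or 33.3% against 13.1% of all genes. With ectopic Sox2 it was 2 (8.33% against 1.53%), and in wildtype 2 (8.33% against 2.85%). At a −log10 q of at least 5 the number with Nkx2-1 deletion was 3 (12.5% against 8.83%). With ectopic Sox2 it was 2 (8.33% against 1.18%), and in wildtype 1 (4.17% against 1.88%). Within 10 kb it was 7 with Nkx2-1 deletion (29.2% against 6.47%). With ectopic Sox2 it was then 0 (against 0.736%), and in wildtype 2 (8.33% against 1.37%). Hdac4, a histone deacetylase that represses Runx2 activity, had the strongest, a summit within the gene at chr1:92183492-92183837 with 101 fragments (82.3 to 123) and a −log10 q of 19.1 with Nkx2-1 deletion. The ectopic Sox2 list had a different Hdac4 summit 19.8 kb from the gene, with 24 fragments and a −log10 q of 12.4. Smad3, a TGF-beta effector that works with Runx factors, had 2 summits with Nkx2-1 deletion, the stronger within the gene with 47 fragments (34.5 to 62.5). Cbfb, the obligate partner of all Runx proteins, had a summit 10.2 kb away with 26 fragments and a −log10 q of 4.84, and another gene was nearer to it.

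Tle1, a Groucho corepressor that Runx proteins recruit, was the cofactor gene with summits in all 3 lists. A region within Tle1 had 27 fragments (17.8 to 39.3) with Nkx2-1 deletion and 16 (9.15 to 26.0) in wildtype, and a region 33.0 kb away had 22 fragments with ectopic Sox2 and 22 in wildtype. Neither region was in all 3 lists. Within 50 kb, Ncor1, Smurf1, Tle3 and Yap1 had a summit with Nkx2-1 deletion alone, with −log10 q of 4.94, 2.95, 2.28 and 3.23. Tle4 had 2 summits with Nkx2-1 deletion beyond that limit, at 57.4 and 86.9 kb with −log10 q of 8.22 and 2.58, and 1 within the gene in wildtype, with 2.89.

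Of 20 known Runx target genes of blood, bone and other tissues, 1 lay within 50 kb of a summit in the Nkx2-1 deleted list (5.00% against 13.1% of all genes), 0 in the ectopic Sox2 list (against 1.53%) and 1 in wildtype (5.00% against 2.85%). With Nkx2-1 deletion the number was 0 within 10 kb (against 6.47%), 3 within 100 kb (15.0% against 20.7%) and 0 by nearest gene up to 500 kb (against 8.34%). Within 10 kb or by nearest gene it was also 0 in wildtype (against 1.37% and 2.11% of all genes). Within 50 kb the gene was Socs3, a cytokine signalling inhibitor, in both lists. The region was 37.2 kb from it and nearer to Pgs1, with 80 fragments (63.4 to 99.6) and a −log10 q of 14.5 with Nkx2-1 deletion, and 37 fragments (26.1 to 51.0) and a −log10 q of 11.7 in wildtype. Bone genes such as Sp7, Spp1, Ibsp and Bglap, which act downstream of Runx2, had no summit within 50 kb in any list. Nor had blood genes such as Spi1 and Csf1r. The same was true of 85.3% of all protein-coding genes.

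The genes most like Runx1 in their highest −log10 q within 50 kb over the 3 lists were Bnip2, Gcnt3 and Gtf2a2, which share their summits and lay at a Euclidean distance of 0.4503, followed by Kif16b at 0.904 and Nfkbiz at 1.05. For Runx2 they were Ccm2, Myo1g and Nacad, which also share summits, at a distance of 6.91, then Sox5 at 10.3 and Anxa1 at 11.9. The values of Runx2 were 36.97, 11.0 and 13.5, beside 33.7, 5.20 and 11.7 for Ccm2 and 39.1, 1.67 and 9.58 for Sox5, in the order of Nkx2-1 deletion, ectopic Sox2 and wildtype. The values of Runx1 were 5.07, 0 (no summit) and 1.92, beside 5.06, 0 and 2.37 for Bnip2. The window of 50 kb leaves out the stronger Runx1 region 173 kb upstream. The measure rests on 1 value from each of the 3 libraries.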

How the data were processed

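Per the submitters' processing notes, reads were processed with Bowtie2 2.2.9, SAMtools 1.4, MACS2 2.1.1 and HOMER 4.8.3 on mm10. The authors deposited 1 peak list per Sox2 ChIP library, with a score, a fold ratio, −log10 p and −log10 q per summit. The sources used here do not give which control was used, the threshold for calling or how duplicates were treated. The input and IgG samples were not used here.

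Fold and −log10 p were solved for whole ChIP fragments (tolerance 0.02, pseudocount 1) and the control background, which gave 1 solution for 100% of summits with ectopic Sox2 and in wildtype and for all but 1 with Nkx2-1 deletion. The procedure was tested on simulated data. Depth is the genome-wide background divided by the fragment scale. Regions were shared at an overlap of at least 1 bp. Genes, strands and promoter windows came from RefSeq (GRCm38.p6), and all 3 Runx symbols matched. Positions count from 1. Surrounding space is the span plus, on each side, up to the midpoint to the next protein-coding gene, at most 500 kb.

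The members and gene lists were chosen with earlier results of these data known. Named genes are the members with all their summits, partners and regulators, targets and conserved neighbours, and the 5 genes with the most similar −log10 q. Python 3.11.15, numpy 2.4.6, scipy 1.17.1 and pandas 2.3.3 were used.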

Additional observations from a re-analysis of the deposited data

How the results depend on the processing

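The number of Runx summits with Nkx2-1 deletion was 8 by nearest gene up to 500 kb, against 4 within 50 kb. With ectopic Sox2 it was 2 by nearest gene, and 0 once the regions shared by all 3 lists were left out, against 1, and the number of Runx genes with a summit was likewise 2 and 0, against 1. In wildtype both the summits and the genes numbered 1 when −log10 q had to reach 5, and 1 once the regions shared by all 3 lists were left out, against 2. Of all genes, 0.978% had a summit with ectopic Sox2 by nearest gene, and 1.21% within 50 kb without the shared regions. In wildtype, 1.88% had one within 50 kb at that −log10 q, and 2.55% without the shared regions. Of the alternatives for the main results, 42 stayed within 1.5 times the value or inside its interval and 9 moved. For the shares of all genes and the partner, target and neighbour lists, 25 stayed and 17 moved. Subtracting the control background kept each of the 6 fragment ratios inside its interval. No paired analysis was possible because each condition has 1 library and no result comes from a test. A peak list gives no fragments where no summit was called, so depth and control background limit what an absence can show.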
